A study of Mus musculus with 20 samples.

Results

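In the mouse hippocampus, 8 genes were followed in 2 sets of 4. Dcn, Tpbg, Nr2f2 and Grp are listed as markers of the ventral hippocampus. Cbln4, Prph, Necab1 and Adgra3 are expressed in neurons and were lower in aged mice after enriched housing. The 8 were chosen from 47729 genes in the count table, and all 8 passed the filter on low counts that 16692 genes passed. Both choices used values of these libraries. The last 4 were chosen on the difference between 24mEE and 24mSC. The first 4 came from a marker list already known to be lower in 24mEE than in 24mSC. That difference is therefore described below without a test, and the tests are kept for other contrasts and for the variation between libraries of 1 group.

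The data came from 20 RNA-seq libraries of hippocampal tissue of male C57BL/6 mice, 5 in each of 4 groups. Mice of the 5mSC and 24mSC groups were kept in standard cages to an age of 5 and 24 months. Mice of the 5mEE and 24mEE groups had the same ages and an enriched environment, which in this study meant cages with running wheels, platforms, tubes and objects that were moved around. The paper describes this housing for the aged mice, as a late-onset enrichment in their last months after a life in standard cages. The labels alone place libraries in 5mEE, and when enrichment began for those mice is not given. Mice were kept in more than 1 run at different times, and the labels do not give the run of a library. Run could therefore not be modelled, and whether it differed between groups is not known. The labels give each library its own animal number, and nothing else states how far the replicates were independent, so p-values measure the spread between these libraries.

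Library totals were 16.1 to 34.1 M assigned reads (M, mega) in 19 libraries. 5mSC replicate 3 stood apart, with 11 M reads and 26.8% of its counts in mitochondrial ribosomal RNA, against 0.883 to 1.82% in the others. 5mSC replicates 1 and 3 had been set apart in an earlier analysis, so the results that rest on them are given again over the other 18 libraries. The tissue label was met by the expected genes. Mpped1 and Fibcd1, markers of CA1 pyramidal cells, averaged 227 and 178 CPM (counts scaled to a common library total), and Calb1 and Prox1, markers of dentate granule cells, averaged 146 and 126 CPM.

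The hippocampus changes along its length. Its dorsal end serves mainly spatial memory and its ventral end is tied to emotion and stress, and pyramidal cells at the 2 ends express different genes. Dcn encodes decorin, a small proteoglycan of the extracellular matrix that fibroblasts also make. Tpbg encodes the trophoblast glycoprotein, a membrane protein with leucine-rich repeats. Nr2f2 encodes COUP-TFII, an orphan nuclear receptor that binds repeats of a short hormone response element. Grp encodes gastrin-releasing peptide, the ligand of the receptor Grpr. Cbln4 encodes a secreted synapse organiser of the cerebellin family. Prph encodes peripherin, an intermediate filament of neurons related to the neurofilaments. Necab1 encodes a neuronal calcium-binding protein, and Adgra3 an adhesion G protein-coupled receptor.

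The genes lie on 8 chromosomes of GRCm38, so none of them are neighbours. Dcn (ENSMUSG00000019929) is at chr10:97479609-97518143, Tpbg (ENSMUSG00000035274) at chr9:85842380-85847040 and Nr2f2 (ENSMUSG00000030551) at chr7:70351944-70366735. Cbln4 (ENSMUSG00000067578) is at chr2:172036233-172043466, Prph (ENSMUSG00000023484) at chr15:99055174-99058978, Necab1 (ENSMUSG00000040536) at chr4:14952245-15149794 and Adgra3 (ENSMUSG00000029090) at chr5:49959956-50059006. All 8 are protein-coding. The library kit does not keep the strand of the RNA, and exons of a gene on the opposite strand covered 23.5% of the exon bases of Tpbg, 7.83% of those of Necab1 and 7.46% of those of Nr2f2. Reads in those stretches cannot be given to 1 strand.

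RefSeq windows were matched for 5 of the 8 genes, and the 250 bases before the start site are shown because 1 of the genes encodes a DNA-binding receptor, whose half-site was searched in every window. Letters are 5′ to 3′ on the strand of the gene, from GRCm38.p6. Capitals mark motifs found on either strand. These were the half-site of COUP-TF receptors (AGGTCA), the GC box (GGGCGG), the cAMP response half-site (TGACG) and the TATA box (TATAAA). The windows are chr9:85842130-85842379 (plus strand) for Tpbg, at the first of 2 RefSeq starts, chr7:70366747-70366996 (minus) for Nr2f2, chr2:172043467-172043716 (minus) for Cbln4, chr15:99054924-99055173 (plus) for Prph and chr5:50058997-50059246 (minus) for Adgra3.
Tpbg: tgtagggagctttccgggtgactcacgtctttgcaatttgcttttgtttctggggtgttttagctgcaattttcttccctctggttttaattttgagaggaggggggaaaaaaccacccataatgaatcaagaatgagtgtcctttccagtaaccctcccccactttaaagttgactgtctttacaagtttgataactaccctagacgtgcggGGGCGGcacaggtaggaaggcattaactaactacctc
Nr2f2: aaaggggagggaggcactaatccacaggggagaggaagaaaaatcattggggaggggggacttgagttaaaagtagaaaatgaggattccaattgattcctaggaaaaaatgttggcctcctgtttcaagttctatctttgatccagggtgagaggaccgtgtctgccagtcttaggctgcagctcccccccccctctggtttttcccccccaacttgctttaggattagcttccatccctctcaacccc
Cbln4: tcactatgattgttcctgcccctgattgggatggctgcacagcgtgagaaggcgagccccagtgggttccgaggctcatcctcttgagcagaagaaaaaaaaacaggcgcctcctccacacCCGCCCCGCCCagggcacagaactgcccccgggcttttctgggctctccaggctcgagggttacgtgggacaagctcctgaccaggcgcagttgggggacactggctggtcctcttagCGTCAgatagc
Prph: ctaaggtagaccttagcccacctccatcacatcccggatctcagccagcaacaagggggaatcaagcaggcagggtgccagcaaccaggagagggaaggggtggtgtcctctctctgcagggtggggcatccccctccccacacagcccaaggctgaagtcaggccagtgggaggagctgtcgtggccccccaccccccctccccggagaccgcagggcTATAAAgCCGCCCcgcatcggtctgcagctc
Adgra3: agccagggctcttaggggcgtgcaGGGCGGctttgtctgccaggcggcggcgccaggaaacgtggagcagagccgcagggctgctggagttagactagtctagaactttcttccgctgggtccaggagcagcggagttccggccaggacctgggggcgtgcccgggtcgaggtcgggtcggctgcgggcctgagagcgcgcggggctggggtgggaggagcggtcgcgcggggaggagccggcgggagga

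None of the 5 windows held AGGTCA, which was in 14% of 32851 RefSeq windows of the same length. A GC box was found once in Tpbg, Prph and Adgra3 and as 2 matches that share 1 base in Cbln4, and in 32.7% of all windows. The Prph window held a TATA box 31 to 26 bases before the start, directly followed after 1 base by its GC box. TATAAA was in 12.4% of all windows. TGACG was found in Cbln4, close to its start, and in 17.8% of all windows. The Nr2f2 window held none of the 4 motifs. G and C made up 45.2% of the Tpbg window, 50% of Nr2f2, 60.8% of Cbln4, 65.2% of Prph and 71.6% of Adgra3, and 64.8% of the window at the second RefSeq start of Tpbg, which is not printed. A match here is a run of letters and not a binding site.

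Levels of different genes are compared as CPM per kilobase of exon. In 24mSC, Necab1 was the most abundant of the 8, at 25.2 ± 3.55 CPM per kilobase (SD, n = 5), and Grp followed at 9.74 ± 1.25. Cbln4 (6.36 ± 1.86) and Dcn (6.06 ± 3.93) did not differ beyond their spread. Neither did Adgra3 (2.85 ± 0.324), Prph (2.55 ± 0.569) and Nr2f2 (2.28 ± 0.918). Tpbg was the least abundant at 1.27 ± 0.396. In 24mEE the order was Necab1 (14.5 ± 2.1), Grp (6.81 ± 0.942), Dcn (2.83 ± 0.67) and Cbln4 (2.45 ± 0.514), with Adgra3, Nr2f2, Tpbg and Prph at 1.89 ± 0.179, 1.58 ± 0.173, 0.777 ± 0.24 and 0.712 ± 0.344. Prph thus stood beside Adgra3 in one 24-month group and beside Tpbg in the other.

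The 4 genes chosen for being lower after enrichment are described first, as levels in CPM with each library given in the order of replicates 1 to 5. Bulk RNA cannot tell fewer cells of a type from less RNA in each cell, and this holds for every value below. Cbln4, the synapse organiser, was at 18.7, 18.2, 24.8, 10 and 20.7 CPM in 24mSC and at 8.05, 6.41, 6.39, 5.49 and 9.2 CPM in 24mEE. In the younger mice it was at 9.39, 15.3, 5.92, 6.67 and 4.44 CPM in 5mSC and at 8.91, 13.4, 9.36, 7.89 and 6.29 CPM in 5mEE. 24mSC was the group that stood apart, with 4 of its 5 libraries above every other library of the study, while 24mEE lay within the range of 5mSC.

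Prph, the intermediate filament, was at 4.38, 6.41, 6.1, 3.73 and 4.84 CPM in 24mSC and at 1.18, 2.54, 0.906, 0.886 and 1.6 CPM in 24mEE. It was at 1.87, 4.88, 24.2, 1.3 and 1.72 CPM in 5mSC and at 1.15, 3.73, 1.31, 1.88 and 1.17 CPM in 5mEE. The 24-month groups did not overlap, and the highest level by far was in 5mSC replicate 3, the library with the high share of mitochondrial ribosomal RNA. The part of that library's RNA composition in its Prph level was not tested.

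Necab1, the calcium-binding protein, was at 124.5, 152.9, 150.6, 115.2 and 115.9 CPM in 24mSC and at 78.7, 92.2, 65.1, 66.5 and 77 CPM in 24mEE. It was at 58.3, 121.6, 68.3, 70.6 and 61.8 CPM in 5mSC and at 79, 117.8, 89.5, 85.8 and 58.4 CPM in 5mEE. 24mEE was within the range of both 5-month groups, and replicate 2 was the highest library of every group. Adgra3, the adhesion receptor, had the tightest groups. It was at 25.1, 25.6, 24.3, 20.6 and 20 CPM in 24mSC, at 16.4, 16.7, 13.5, 15.9 and 14.1 CPM in 24mEE, at 16.8, 20.6, 19.7, 20.9 and 16.8 CPM in 5mSC and at 24, 26.1, 25.6, 22.8 and 18.2 CPM in 5mEE. The highest 24mEE library of Adgra3 (16.73 CPM) lay close to the lowest 5mSC library (16.77 CPM), and the lowest 5mEE library was at 18.2 CPM. Since 24mEE took part in the choice and the share of all genes with such levels was not computed, nothing is read from this.

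**Figure D1:**
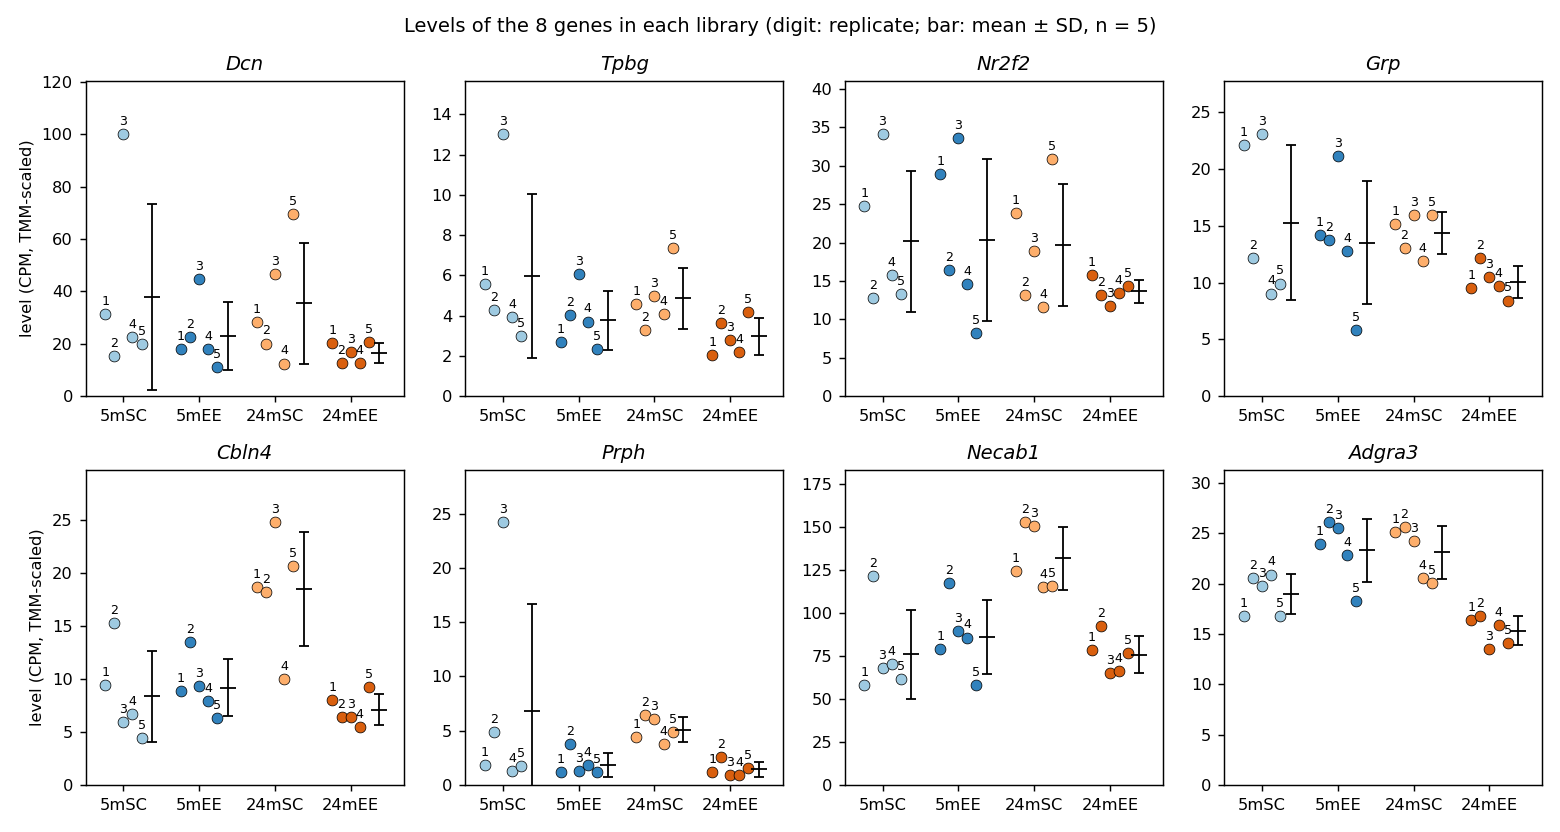
Levels (CPM, linear axes from 0) of the 8 genes in each of the 20 libraries, with the replicate number above each point and the group mean and SD (n = 5) as a bar at its right, cut at 0 where it would pass below. Cbln4, Prph, Necab1 and Adgra3 have no overlap between 24mSC and 24mEE, whereas Dcn, Tpbg, Nr2f2 and Grp overlap there, and 5mSC replicate 3 is far above its group for Dcn (100.2 CPM), Tpbg (13 CPM) and Prph (24.2 CPM).

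The 4 ventral markers overlapped more between groups. Dcn was at 28.1, 20.1, 46.8, 12.5 and 69.6 CPM in 24mSC and at 20.2, 12.7, 16.7, 12.5 and 20.6 CPM in 24mEE. In the 5-month groups it was at 31.3, 15.3, 100.2, 22.5 and 20 CPM in 5mSC and at 18, 22.6, 44.9, 18.2 and 11.2 CPM in 5mEE. 5mSC replicate 3, 5mEE replicate 3 and 24mSC replicates 3 and 5 lay well above the rest, and no 24mEE library reached their levels. Nr2f2 was at 23.8, 13.2, 18.9, 11.7 and 30.9 CPM in 24mSC, at 15.8, 13.1, 11.7, 13.4 and 14.3 CPM in 24mEE, at 24.8, 12.8, 34.2, 15.7 and 13.2 CPM in 5mSC and at 28.9, 16.4, 33.6, 14.7 and 8.25 CPM in 5mEE. Its SD was 1.5 CPM in 24mEE and 7.92 to 10.5 CPM in the other 3 groups. Tpbg ranged from 2.07 to 13 CPM over the 20 libraries and Grp from 5.79 to 23.1 CPM, and both had means that were lowest in 24mEE, at 2.97 ± 0.919 and 10.1 ± 1.39 CPM (SD, n = 5).

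Between 24mSC and 24mEE, all 8 genes had a negative log2 fold change, which the choice of genes fixed in part. It was −1.38 ± 0.28 (SE) for Cbln4, −1.84 ± 0.64 for Prph, −0.80 ± 0.18 for Necab1 and −0.60 ± 0.11 for Adgra3. It was −1.10 ± 0.48 for Dcn, −0.71 ± 0.35 for Tpbg, −0.53 ± 0.33 for Nr2f2 and −0.52 ± 0.27 for Grp. The groups did not overlap for 4 of the 8, and 24mEE lay below 24mSC without overlap in 322 of 16692 genes (1.93%). Nothing is read from that count, since the same contrast chose the genes. With 24mSC replicate 5 left out, the value was −0.70 for Dcn, −0.51 for Tpbg and −0.30 for Nr2f2. It stayed between −0.59 and −0.46 for Grp, and between −1.53 and −1.24 for Cbln4, whichever single library was left out.

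The question of whether enrichment lowered these genes in young mice could be tested, since the 5-month groups took no part in the choice. None of the 8 passed (edgeR quasi-likelihood test, adjusted p under 0.05), as did none of the 16692 genes (0%). At an unadjusted p under 0.05 there were 2759 genes, and DESeq2 called 21. Adgra3 was higher, not lower, in 5mEE, at 23.3 ± 3.13 against 19 ± 2.03 CPM (log2 fold change 0.30 ± 0.10, SE, edgeR adjusted p = 0.225). Prph was at 1.85 ± 1.1 CPM in 5mEE against 6.8 ± 9.84 CPM in 5mSC (−1.79 ± 0.63, adjusted p = 0.225), and the value was −0.36 without 5mSC replicate 3. Only these 2 of the 8 had an unadjusted p under 0.05, and DESeq2 called none of the 8. Cbln4 differed by 0.14 ± 0.28 (adjusted p = 0.829) and Necab1 by 0.18 ± 0.18 (adjusted p = 0.632).

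Among the ventral markers at 5 months, Dcn differed by −0.68 ± 0.48 (adjusted p = 0.472), Tpbg by −0.61 ± 0.34 (0.378), Grp by −0.16 ± 0.27 (0.794) and Nr2f2 by 0.040 ± 0.33 (0.966). Without 5mSC replicates 1 and 3, the values of Dcn, Tpbg and Grp were 0.23, 0.016 and 0.39, so their negative sign was not kept without those libraries. That of Grp also turned without 5mEE replicate 5 alone (0.031). Over the 8 genes, 4 were negative and the median was −0.058, against −0.021 over all genes, of which 53.9% were negative.

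Age was tested as the mean of both 24-month groups against the mean of both 5-month groups. With equal group sizes and equal spread, this contrast is uncorrelated with the 24-month difference. The spread was not equal for every gene (SD of Dcn 23 CPM in 24mSC and 3.91 CPM in 24mEE), so the choice of genes can still reach the age values. The age test called 198 of 16692 genes (1.19%) and none of the 8, and DESeq2 called 472 genes and again none of the 8. Cbln4 was 0.40 ± 0.20 higher at 24 months (adjusted p = 0.35) and Necab1 0.31 ± 0.13 higher (adjusted p = 0.274). Without 5mSC replicate 2, the library with 121.6 CPM, Necab1 was at 0.42 with an adjusted p of 0.0409, and the same edgeR fit then called 1.96% of genes. Adgra3 was at −0.16 ± 0.074 (0.325), Nr2f2 at −0.29 ± 0.23 (0.597), Tpbg at −0.28 ± 0.24 (0.623), Dcn at −0.26 ± 0.34 (0.771), Grp at −0.24 ± 0.19 (0.587) and Prph at −0.33 ± 0.44 (0.778). The median of the 8 was −0.25, against −0.0061 over all genes. Without 5mSC replicates 1 and 3, when 5.71% of genes were called, Dcn, Tpbg, Grp and Prph turned to 0.20, 0.035, 0.033 and 0.36.

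The age differences within each housing share groups with the contrast that chose the genes and are given without a test. In standard cages, Cbln4 was 1.16 ± 0.28 (log2, SE) higher at 24 than at 5 months, Necab1 0.79 ± 0.18 and Adgra3 0.29 ± 0.11, while Prph was at −0.30 ± 0.60. In enriched cages the same values were −0.36 ± 0.28, −0.18 ± 0.18, −0.61 ± 0.10 and, for Prph, −0.35 ± 0.65. For the ventral markers the age difference in standard cages was between −0.23 (Tpbg) and −0.0045 (Nr2f2), and in enriched cages between −0.57 (Nr2f2) and −0.34 (Tpbg).

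**Figure D2:**
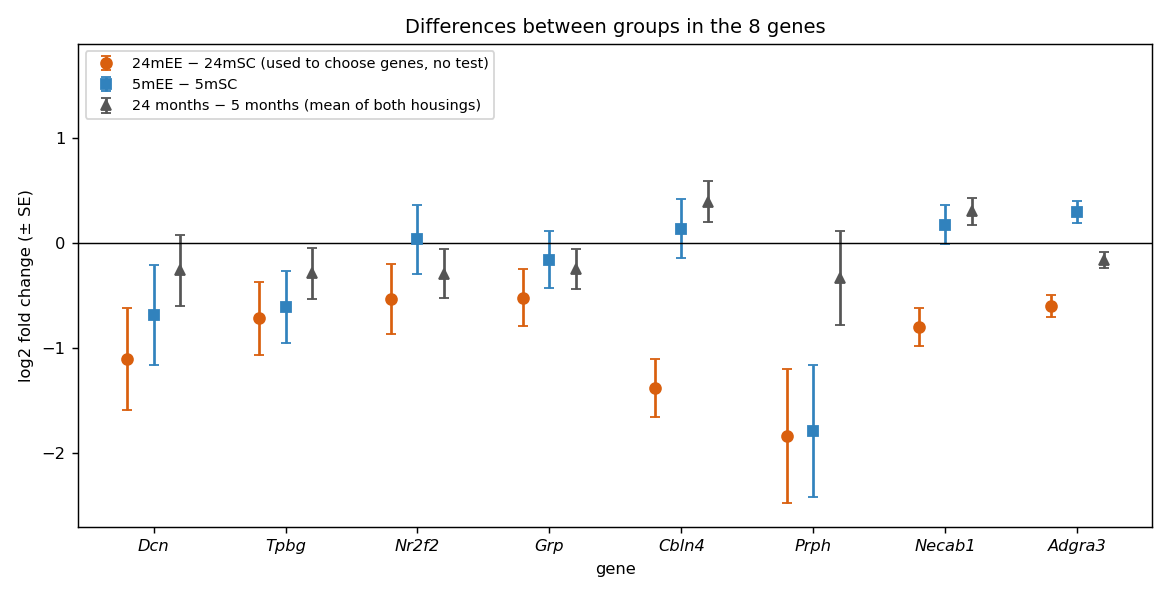
Log2 fold changes (vertical axis, with SE from the edgeR fit of 20 libraries) of the 8 genes for 24mEE against 24mSC, 5mEE against 5mSC, and 24 against 5 months. The 24-month enrichment values are all below 0 and chose the genes, the 5-month values lie on both sides of 0 from −1.79 (Prph) to 0.30 (Adgra3), and the age values lie between −0.33 (Prph) and 0.40 (Cbln4).

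Whether the genes vary together between libraries of the same group was asked after removing the group means, by which genes were chosen. Genes chosen for a shared difference may also share variation within groups, so these pairs are not wholly free of the choice. Each log2 CPM value was centred on the mean of its group, and Pearson's r was taken over 20 libraries for each of the 28 pairs, with p from 100000 random reassignments of libraries within groups (two-sided permutation test) and adjusted over the 28 pairs. Of these, 8 passed, and all 8 were within a set. They were all 6 pairs of Dcn, Tpbg, Nr2f2 and Grp, and the pairs of Necab1 with Cbln4 and with Adgra3. None of the 16 pairs across the sets passed.

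Among the ventral markers, r was 0.826 for Dcn and Nr2f2 (rho 0.838, permutation p = 7e-05, adjusted p = 0.00196), 0.815 for Nr2f2 and Grp (rho 0.802, adjusted p = 0.00485) and 0.809 for Dcn and Tpbg (rho 0.744, adjusted p = 0.00406). It was 0.711 for Tpbg and Grp (adjusted p = 0.00683), 0.677 for Dcn and Grp (0.00705) and 0.675 for Tpbg and Nr2f2 (0.0124), with rho from 0.629 to 0.726. With the 2 libraries farthest from the median of the first gene left out, the 6 values of r were 0.607 to 0.755. Without 5mSC replicates 1 and 3 they were 0.543 to 0.782, with rho from 0.313 (Dcn and Grp) to 0.697 (Dcn and Nr2f2), and 3 of the 6 pairs still passed, Dcn with Nr2f2 (adjusted p = 0.0287), Dcn with Tpbg (0.0334) and Nr2f2 with Grp (0.0334).

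Among the other 4, r was 0.731 for Necab1 and Adgra3 (rho 0.809, permutation p = 0.00074, adjusted p = 0.00518) and 0.7 for Cbln4 and Necab1 (rho 0.609, permutation p = 0.00354, adjusted p = 0.0124). The Cbln4 and Necab1 pair had r = 0.733 without the 2 libraries farthest from the median, but an adjusted p of 0.0873 (r = 0.522) without 5mSC replicate 2 and of 0.0501 (r = 0.651) without 5mEE replicate 2. Prph and Necab1 had r = 0.446 (adjusted p = 0.339) but rho = 0.701 (adjusted p = 0.00859). Their r was 0.847 without 5mSC replicate 3 and 24mSC replicate 2, and 0.875 without 5mSC replicates 1 and 3 (adjusted p = 0.00308). 5mSC replicate 3 had a high level of Prph and an ordinary level of Necab1. Cbln4 and Prph likewise went from 0.232 to 0.68 (adjusted p = 0.0464). All 6 pairs of this set were positive in both settings, with a median of 0.429 over 20 libraries and 0.703 over 18.

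**Figure D3:**
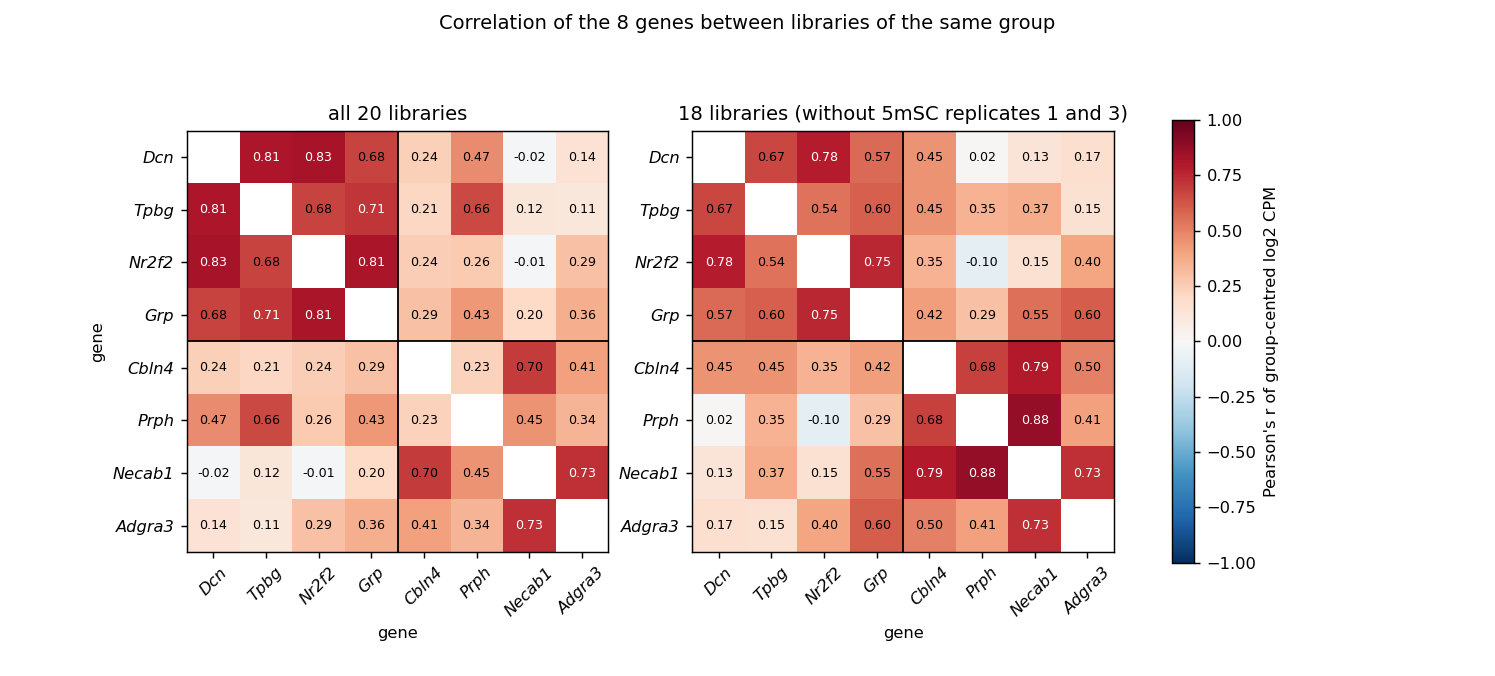
Pearson's r of group-centred log2 CPM for each pair of the 8 genes (colour scale from −1 to 1), over 20 libraries at left and over 18 at right, with lines that part the ventral markers from the other 4. The upper left block of ventral markers is 0.675 to 0.826 at left, and the lower right block is stronger at right, where Prph and Necab1 reach 0.875.

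The median r was 0.76 within the ventral set and 0.241 over the 16 pairs across the sets, of which 14 were positive. Over all 28 pairs it was 0.35. Over all pairs of the 16692 genes it was −0.00045, with 14.1% of pairs at 0.5 or more, against 9 of the 28. Without 5mSC replicates 1 and 3, 12 of the 28 pairs and 5.71% of all pairs reached 0.5. The difference between the blocks was not tested. Within each age alone the ventral pairs were 0.729 to 0.94 at 5 months and 0.372 to 0.845 at 24 months (10 libraries each). The share of all gene pairs at 0.5 or more was 22.5% over the 5-month libraries and 11.2% over the 24-month libraries, against 11 and 8 of the 28. Of the 28 pairs, 7 passed at 5 months and none at 24 months, where the 8 pairs named above had adjusted p from 0.302 to 0.549 (permutation test).

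The libraries that carried this can be named. In 5mEE, replicate 3 was the highest in all 4 ventral markers, replicate 2 in all of the other 4, and replicate 5 the lowest in 7 of the 8. In 24mSC, replicate 5 was the highest in Dcn, Tpbg and Nr2f2 and level with replicate 3 in Grp (15.96 and 15.95 CPM), replicate 2 in Prph, Necab1 and Adgra3, and replicate 4 the lowest in 6 of the 8. In 5mSC, replicate 3 was the highest in the 4 ventral markers and Prph, and replicate 2 in Cbln4 and Necab1. In 24mEE the ventral markers did not share a highest library. There replicate 2 was the highest in Grp, Prph, Necab1 and Adgra3, replicate 5 in Dcn, Tpbg and Cbln4, and replicate 1 in Nr2f2, and replicate 5 was the lowest in Grp. Replicate numbers follow the order of the samples and pair nothing between groups.

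**Figure D4:**
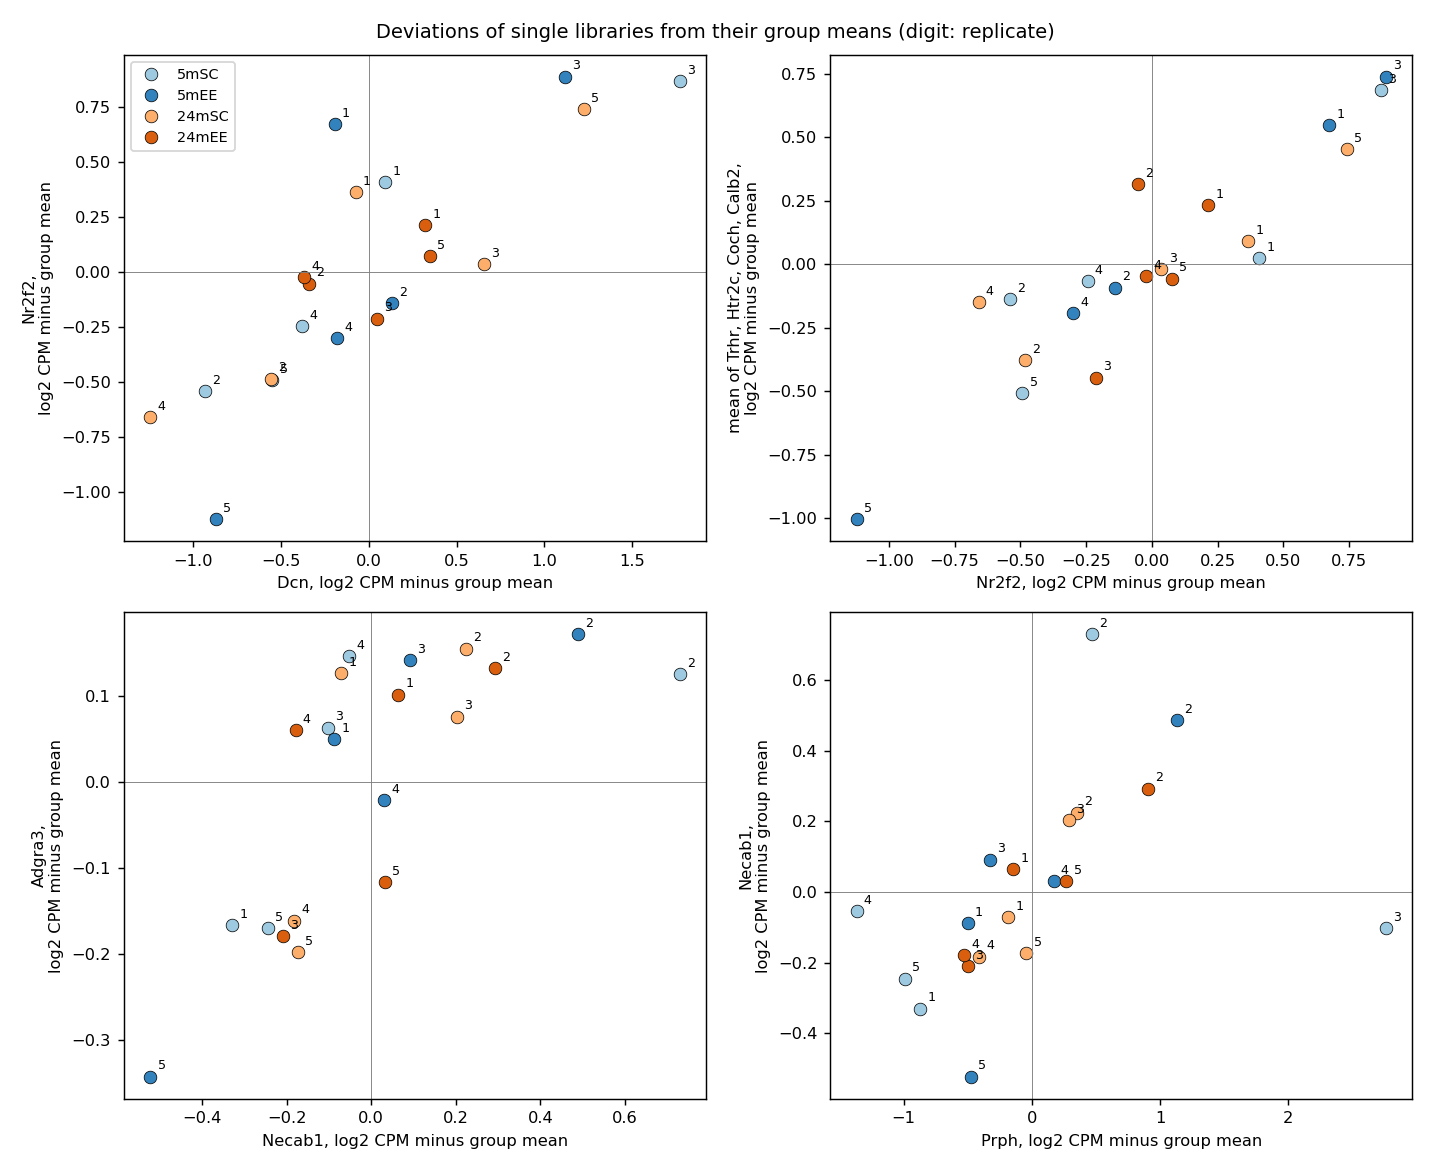
Deviations of each library from its group mean (log2 CPM, replicate number beside each point, colour by group) for Dcn against Nr2f2 (r = 0.826), Nr2f2 against the mean of 4 other ventral markers (r = 0.906), Necab1 against Adgra3 (r = 0.731) and Prph against Necab1 (r = 0.446). In the last panel 5mSC replicate 3 lies far to the right of the other libraries.

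The genes also differed in how much they varied. The SD of log2 CPM within groups was 0.98 for Prph, 0.82 for Dcn, 0.59 for Nr2f2, 0.57 for Tpbg, 0.48 for Cbln4 and Grp, 0.31 for Necab1 and 0.17 for Adgra3, against a median of 0.22 over all genes. Prph and Dcn varied more than 98.9% and 97.4% of genes, and Adgra3 more than 32.4%. Over 18 libraries the SD of Prph was 0.63 and that of Dcn 0.68, the highest of the 8, and the 3 shares were 98.2%, 98.7% and 57%. The lowest count in a library was 20 for Prph, 49 for Tpbg and 54 for Cbln4, against 180 to 623 for the other 5, so counting error is larger for those 3.

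The label of the ventral set was compared with the 4 ventral markers that are not members, Trhr, Htr2c, Coch and Calb2. These are correlations over 20 libraries that share depth and dissection, given without p. The mean of the 4, centred by group, had r = 0.906 with Nr2f2, 0.783 with Grp, 0.682 with Dcn and 0.665 with Tpbg, and 0.902, 0.799, 0.586 and 0.563 without 5mSC replicates 1 and 3. With Cbln4, Prph, Necab1 and Adgra3 it was 0.227, 0.358, 0.217 and 0.48. The summed level of these 4 other ventral markers ranged from 59.2 to 114 CPM in 5mSC, 36.3 to 128 in 5mEE, 69.2 to 120 in 24mSC and 49.7 to 72.4 in 24mEE, and none was at 0 in every library of a group. The mean of 7 dorsal markers, led by Wfs1 and Ccn3, ran the other way, with r = −0.714 for Nr2f2, −0.617 for Dcn, −0.605 for Grp and −0.561 for Tpbg. Over 18 libraries it was −0.664 for Nr2f2 and −0.484 for Grp, but −0.285 for Dcn and −0.0927 for Tpbg. Prph, which is not of the ventral set, had r = −0.588 with the dorsal mean, and 0.00605 over 18 libraries. For Cbln4, Necab1 and Adgra3 it was 0.0885, 0.0177 and −0.244 over 20 libraries. The summed dorsal level was 370.0 to 659 CPM in 5mSC, 444 to 719 in 5mEE, 542 to 636 in 24mSC and 518 to 670 in 24mEE, with none of the 7 at 0 in every library of a group. Dorsal markers were not alone in running the other way. Oligodendrocyte markers had r = −0.72 with Nr2f2 and −0.686 with Dcn (−0.736 and −0.603 over 18 libraries). Microglia markers had −0.792 with Tpbg and −0.64 with Dcn (−0.544 and −0.211 over 18). Astrocyte markers had −0.633 with Nr2f2 and −0.627 with Tpbg (−0.462 and −0.381 over 18).

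Other regions moved with some of the 8 genes too. The 6 thalamus and habenula markers, led by Nwd2 and Prkcd, had r = 0.749 with Dcn and 0.787 with Tpbg (0.563 and 0.59 over 18 libraries), with summed levels of 83 to 124 CPM in 5mSC, 88.5 to 102 in 5mEE, 77.7 to 115 in 24mSC and 81.2 to 103 in 24mEE. With Prph their r was 0.722 (0.212 over 18 libraries) and with Cbln4 0.194 (0.65 over 18). With Nr2f2, Grp, Necab1 and Adgra3 it was 0.52, 0.452, 0.0642 and 0.0472 over 20 libraries. None of the 6 thalamus and habenula markers was at 0 in every library of a group, and their part in the result was not tested. The 6 choroid plexus markers that passed the filter had r = 0.634 with Dcn, 0.651 with Tpbg and 0.545 with Prph, and 0.33, 0.299 and −0.154 over 18 libraries. The summed level of all 8 listed was 31.6 to 377 CPM in 5mSC, 44.1 to 140 in 5mEE, 33.5 to 75.5 in 24mSC and 33.2 to 80.3 in 24mEE. None of the 8 was at 0 in every library of a group, and their part was not tested either. The 8 fibroblast markers had r = 0.35 with Dcn, and 0.209 over 18 libraries, and their part in its level was not tested. With the fibroblast mean as a covariate, 8 of the 28 pairs passed. Its r with the ventral markers was −0.116 to 0.35, so removing it could change little. The thalamus, dorsal, choroid plexus, oligodendrocyte, astrocyte and microglia means were not used as covariates.

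Necab1 and Prph moved with the lists of neocortex and striatum markers. The 6 neocortex markers, led by Fezf2 and Cux2, had r = 0.669 with Necab1 and 0.304 with Prph, and 0.667 and 0.718 over 18 libraries. With Cbln4 and Adgra3 it was 0.228 and 0.353, and 0.221 and 0.36 over 18 libraries. Their summed level was 126 to 185 CPM in 5mSC, 117 to 165 in 5mEE, 148 to 188 in 24mSC and 113 to 167 in 24mEE, and all 6 were lower in 24mEE than in 24mSC (median −0.23, log2). The 7 striatum markers, led by Pde10a and Ppp1r1b, had r = 0.608 with Necab1 and 0.536 with Prph, and 0.588 and 0.789 over 18 libraries. Their summed levels were 120 to 161, 148 to 171, 157 to 167 and 150 to 175 CPM in the 4 groups in the same order. Of the 7, 5 were lower in 24mEE than in 24mSC. None of these 13 markers was at 0 in every library of a group. With the neocortex mean as a covariate, 10 of the 28 pairs passed. The 4 other ventral markers and the 5 markers of subiculum and adjoining cortex were also all lower in 24mEE (medians −0.62 and −0.26). None of the 5 CA3 and 5 dentate gyrus markers was lower (medians 0.35 and 0.32), and 3 of the 7 dorsal markers were (0.27). The part of any of these regions in the 24-month difference was not tested. Dentate gyrus markers ran against Adgra3 (r = −0.631) and Necab1 (−0.555), and 5 CA3 markers against Prph (−0.74). With the dentate mean as a covariate 8 pairs passed, and its r with the ventral markers was only −0.267 to −0.0525. Nothing about regions or cell types is read from the counts with covariates.

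For each member, the 3 genes of a mean log2 CPM of at least 1 with the highest r are named as a description over 20 libraries. They were Vegfd, Pde9a and Amz1 for Dcn (0.894, 0.889 and 0.888), and Htr2c, Arhgap6 and Plxna3 for Tpbg (0.89, 0.884 and 0.881). They were Cpne2, Igfbp3 and Trhr for Nr2f2 (0.904, 0.902 and 0.9) and Resp18, Asl and Trhr for Grp (0.876, 0.824 and 0.823). The ventral markers Htr2c, a serotonin receptor, and Trhr, the receptor of thyrotropin-releasing hormone, were thus among the 3 closest genes of 3 members. Over 18 libraries this held for Trhr with Grp alone (0.856), and Htr2c had r = 0.816 with Tpbg and Trhr 0.894 with Nr2f2. For the other set they were Gtf2ird1, Cntnap3 and Slc4a3 for Cbln4 (0.854, 0.81 and 0.762), Kif21b, Il1rapl2 and Fhod3 for Necab1 (0.918, 0.893 and 0.88), and Coro2a, Kcnj16 and Mgat4c for Adgra3 (0.837, 0.784 and 0.766). Klf5, Sfrp1 and Cfap69 were closest to Prph (0.948, 0.942 and 0.931), and at 0.824 to 0.874 over 18 libraries. Ranked by r among all tested genes, the closest fellow member was at rank 7 for Grp (Nr2f2), 9 for Adgra3 (Necab1), 22 for Cbln4 (Necab1), 24 for Dcn (Nr2f2), 34 for Nr2f2 (Dcn), 39 for Tpbg (Dcn), 90 for Necab1 (Adgra3) and 2052 for Prph (Tpbg).

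Relatives and partners of the 8 were measured for 24 of 25 listed genes, and none passed the 5-month or the age test. Grp itself (ENSMUSG00000024517) lies at chr18:65872820-65886596. Grpr, the receptor of its peptide, was 0.45 ± 0.24 (log2, SE) higher in 5mEE than in 5mSC (adjusted p = 0.357) and −0.32 ± 0.18 with age (0.41). Nr2f1, the paralog of Nr2f2, differed by −0.082 ± 0.10 at 5 months (0.702) and −0.018 ± 0.072 with age (0.938). Grid1, a delta glutamate receptor subunit of the family that cerebellins bind, differed by 0.29 ± 0.14 (0.292) and 0.15 ± 0.10 (0.484). The neurofilament genes Nefl, Nefm and Nefh, relatives of Prph, differed by 0.12, 0.38 and 0.23 at 5 months, with adjusted p from 0.246 to 0.454. Between 24mSC and 24mEE, 18 of the 24 were negative with a median of −0.068. Over all genes 50.6% were negative and the median was −0.0017. The median of the 8 members was −0.75, but this contrast chose them.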

How the data were processed

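Hippocampal RNA of 20 mice was sequenced as 50-base single reads. Per the labels, featureCounts 1.4.6-p4 was run on reads that STAR 2.4.1d had aligned to GRCm38, with bcl2fastq 1.8.2 before it, and the authors deposited raw counts per gene. RPKM values were also deposited and not used here. Ensembl IDs were given symbols from GENCODE vM21 (98.9% matched). Counts of the 4 groups were fitted together in edgeR 4.0.16 (R 4.3.3, TMM scaling, filterByExpr with a minimum count of 10, quasi-likelihood test, Benjamini-Hochberg adjustment over 16692 genes). CPM are TMM-scaled, and log2 CPM used a prior count of 2. DESeq2 1.42.0 was an alternative. The scripts were tested on simulated data. No 2 libraries of a group held identical values. Library depth was 11 to 34.1 M reads. The members and lists were chosen with earlier results of these data known. Named genes are the 8 members, relatives, the 3 genes closest to each member, and the 2 most abundant markers of a list. Promoter sequences and starts are from RefSeq (GRCm38.p6), matched by symbol for 5 of 8 genes.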

Additional observations from a re-analysis of the deposited data

Results flagged for a closer look

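Of 32 sets of 5 libraries (8 genes in 4 groups), 5 held a library far from the others by Dixon's test, where chance would flag about 1 in 20 sets. Over all tested genes 9.47% of sets were flagged, 21.6% in 5mSC and 5.15 to 5.81% in the other groups, and in 18.9% of genes it was 5mSC replicate 3 that lay far from its group. In 3 of the 5 sets the library was 5mSC replicate 3, at 100.2 CPM for Dcn (next highest 31.3), 13 CPM for Tpbg (5.58) and 24.2 CPM for Prph (4.88). That library had a median r of 0.928 with its group and 26.8% of its counts in mitochondrial ribosomal RNA. Its mean log2 CPM of choroid plexus markers was 3.65 (0.708 to 1.54 in the rest of 5mSC), that of thalamus and habenula markers 3.63 (2.58 to 2.93) and that of CA1 markers 6.32 (6.87 to 7.27). The part of these in the 3 levels was not tested. Prph was at 3.73 CPM in 5mEE replicate 2 (next highest 1.88), and Necab1 at 121.6 CPM in 5mSC replicate 2 (70.6). Necab1 was also highest in replicate 2 of 5mEE.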

How the results depend on the processing

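No paired analysis was possible because the labels give the groups no shared replicate numbers. The 24-month differences of all 8 genes kept their negative sign in all 26 alternatives. The choice of genes fixed that sign in part, and some alternatives left out only a 5-month library, so nothing is read from it. The median r of the 28 pairs was 0.259 to 0.453 over its alternatives, and the count of passing pairs was 7 to 10, except 0 with the 24-month libraries alone. Leaving out single libraries gave 7 to 9 pairs. Of all genes tested, 0% passed at 5 months, 0.13% by DESeq2 and 0 to 0.00597% with 1 library left out. For age, where 1.19% passed, it was 0.324% without a filter, 2.49% by DESeq2, 5.71% without 5mSC replicates 1 and 3, and 0.604 to 5.37% with 1 library left out (highest without 5mSC replicate 3). With 1 library left out, the 5-month sign turned for Dcn (−1.08 to 0.020), Nr2f2 (−0.22 to 0.27), Grp (−0.38 to 0.041) and Cbln4 (−0.044 to 0.46), and the age sign for Dcn (−0.46 to 0.097) and Prph (−0.49 to 0.40). Without 5mSC replicates 1 and 3, it turned at 5 months for Dcn (0.23), Tpbg (0.016) and Grp (0.39), and for age for Dcn (0.20), Tpbg (0.035), Grp (0.033) and Prph (0.36). The cause was not tested. The labels give no run, so none could be modelled, and counts as low as those of Tpbg and Prph limit small differences.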
